A study of Mus musculus with 4 samples.

Results

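The collagen gene family was followed through the kidney cells of old mice, with or without an inhibitor of glutaminase. Its members were the genes whose symbol is Col, a number, the letter a and a number, and 44 of the 31054 genes in the deposited matrices qualified. All 44 had at least 1 unique molecular identifier (UMI, the tag that counts 1 captured RNA molecule) in the cells kept. The selection by symbol used no measured value.

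Collagens are extracellular proteins built from 3 chains wound into a triple helix. The fibrillar kinds (types I, III and V) give connective tissue its tensile strength and are made mainly by fibroblasts. Type IV chains form the sheet-like network of basement membranes under endothelium and tubule, and the Col4a3, Col4a4 and Col4a5 chains form the specialised network of the glomerular and tubular basement membrane. Excess fibrillar collagen between the tubules is the hallmark of kidney fibrosis, and in droplet data RNA set free from broken cells can carry such transcripts into droplets of other cells.

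The animals were male C57BL/6 mice aged 19 months. One group received BPTES, an allosteric inhibitor of the glutaminase GLS1, and the other received DMSO, its solvent, for 1 month. Kidneys were digested with Liberase and sorted on CD45, a surface protein of leukocytes, and 20000 CD45-negative cells were mixed with 9000 CD45-positive cells before 10x Genomics 3′ capture. Each group had 2 libraries. The mixing fixed the ratio of leukocytes to other cells, and the labels do not say whether a library came from 1 animal or several.

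The 4 matrices held 76278 barcodes, and each library had between 249881074 and 297947661 UMIs. After filters, 46738 cells remained, 10849 to 12076 per library, with a median of 12825 to 14817 UMIs per cell. Library pairs shared 90 to 114 barcode sequences. Classes were named from marker lists without the use of any collagen gene. They held 243 fibroblast-like, 3055 endothelium-like, 25175 tubule-like and 14198 leukocyte-like cells, called by the plain class names from here on. The 12 fibroblast markers summed to 2956 and 4843 UMIs per 1000000 UMIs of the class (CPM) in the fibroblasts of the BPTES libraries and to 2932 and 4259 CPM in those of the DMSO libraries. Fibroblasts also held endothelial markers at 940 to 1189 CPM and mural markers (pericytes and smooth muscle) at 1434 to 2322 CPM, and the endothelium held its own 11 markers at 19152 to 20143 CPM. No cluster was named mural or glomerular epithelium, so podocyte and pericyte collagens were not separable here.

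A second stromal cluster of 225 cells stayed unnamed. Dcn, Csmd1 and Gpc6 led it. The mural list had the highest standardised score, yet in CPM its fibroblast list was the higher, at 15994 to 18744 under BPTES and 8206 to 12142 under DMSO, against 4469 to 6921 and 1346 to 6706 for the mural list. The cluster held more fibroblast marker RNA than the class named fibroblasts. Under BPTES it counted 44 and 32 cells, and under DMSO 44 and 105. It is given beside the fibroblasts where collagens are traced to a source.

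Each class carried its own collagen repertoire. Collagens made up 1.55% of all fibroblast UMIs and 1.16% of those of the second stromal cluster. The share was 0.193% in endothelium, 0.107% in tubule and 0.00975% in leukocytes. UMI levels of captured 3′ ends are compared between genes without a length term. Whether intronic reads were counted is not given, and an effect of gene length on these comparisons was not tested.

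The chains of type I and type III fibres and the main type VI chains lay almost wholly in the stroma. Of the Col1a1 UMIs in kept cells (an alpha chain of type I collagen, the main fibre of scar and skin), 73.1% came from fibroblasts and 24.7% from the second stromal cluster. The other type I chain, Col1a2, had 71.7% and 26.3% there, and Col3a1, the chain of the finer type III fibres, 76.8% and 21.0%. Col6a1, a chain of the microfibrils that anchor cells to the interstitial matrix, had 67.8% and 28.1%.

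Tubule cells held the chains of the specialised type IV network. They supplied 96.7% of the Col4a3 UMIs, 97.1% of Col4a4 and 95.2% of Col4a5. Col27a1, a fibrillar chain with a shorter helix, and Col26a1, a small collagen of uncertain role, were also chiefly tubular, at 91.3% and 97.3%. Col4a1, a chain of the network found in all basement membranes, was divided between endothelium (38.9%), tubule (37.8%) and fibroblasts (13.9%). Col13a1, a transmembrane collagen, was endothelial for 89.2% of its UMIs. Col8a1, a short-chain collagen of vessel walls, had 78.7% of its UMIs in tubule and 15.7% in fibroblasts, since tubule cells were far more numerous. Col15a1, a proteoglycan collagen of the outer basement membrane zone, had 56.3% in fibroblasts and 26.2% in endothelium.

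Kept cells held 176131 UMIs of Col4a3 and 167535 of Col4a4, the highest, and 11 each of Col9a2 and Col2a1, the lowest. The cartilage collagens Col2a1, Col9a1, Col9a2, Col10a1 and Col11a1 had 11 to 76 UMIs each, and Col22a1 and Col6a4 had 28 and 23, too few to compare between groups. Leukocytes held the largest share of Col14a1, with 60.9% of its 25295 UMIs, beside 27.6% in fibroblasts. The same held for a few weakly counted members: 76.7% of the 443 Col9a3 UMIs, 74.1% of the 487 Col11a2 UMIs and 56.9% of the 109 Col17a1 UMIs. Leukocytes also held 46.6% of the 1855 Col20a1 UMIs and 40.1% of the 1268 Col23a1 UMIs. Col19a1, a fibril-associated member, lay to 86.3% in tubule (1113 UMIs in all), and Col7a1, the anchoring fibril under stratified epithelia, to 62.4% (583 UMIs). Col12a1 was divided between tubule (40.8%), the second stromal cluster (17.3%) and fibroblasts (16.0%), and Col16a1 between tubule (45.9%) and fibroblasts (39.0%). Low counts left 23 of 44 collagens for the test in fibroblasts, 22 in endothelium, 31 in tubule, 25 in proximal tubule and 29 in leukocytes.

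**Figure D1:**
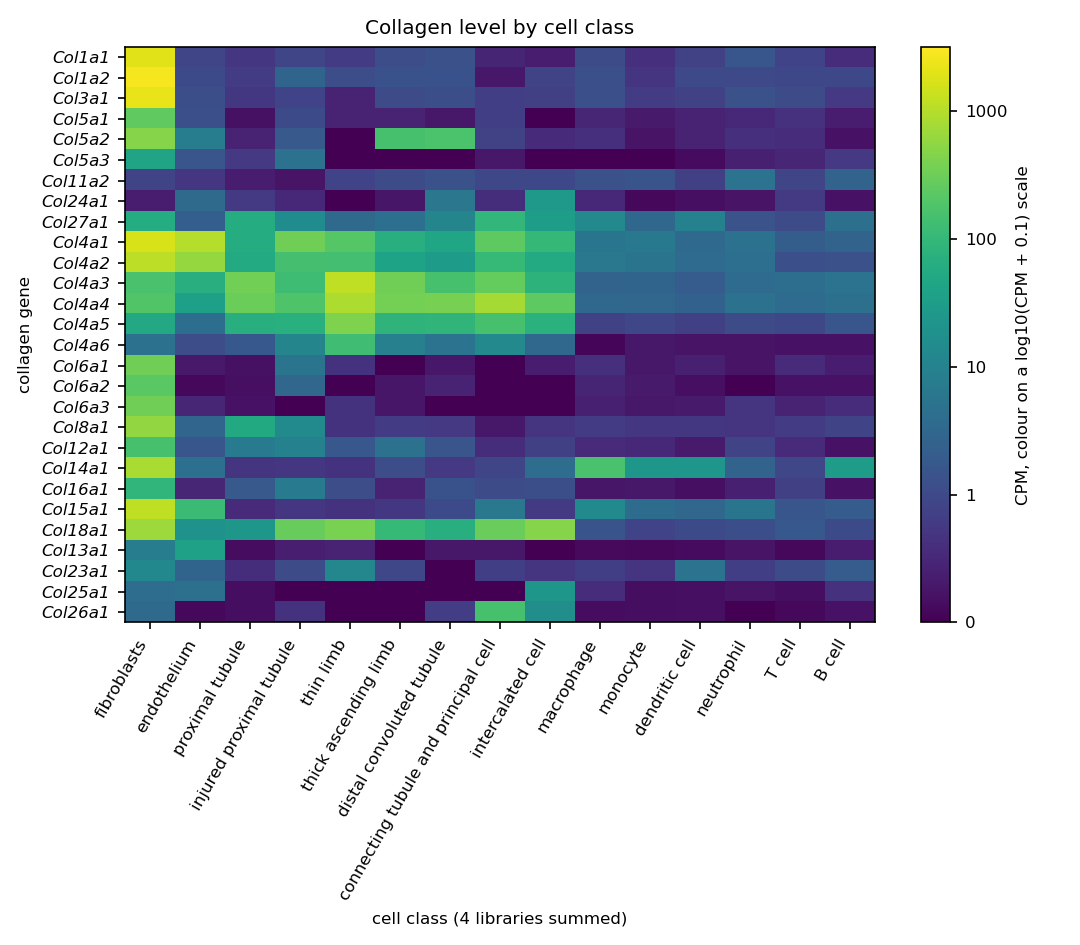
Level of 28 collagens (rows) in fibroblasts, endothelium, 7 tubule classes and 6 leukocyte classes (columns), as CPM over the 4 libraries summed; the colour is on a log10(CPM + 0.1) scale. Col1a1, Col1a2, Col3a1 and the type VI chains are bright in the fibroblast column, Col5a2 also in the thick ascending limb and distal convoluted tubule, and Col4a3, Col4a4 and Col4a5 are bright along the tubule.

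Along the nephron Col4a3 was highest in the thin limb, a class of 28 to 93 cells per library. It stood there at 1267 and 1383 CPM in the BPTES libraries and at 1150 and 1119 CPM in the DMSO libraries. Col4a6, which pairs with Col4a5 in some basement membranes, reached 73.9, 159, 256 and 109 CPM in the thin limb (BPTES 1, BPTES 2, DMSO 1 and DMSO 2, the order of every list of 4 values from here on). In every other tubule class Col4a6 stayed at 22 CPM or less. The thin limb libraries of the 2 groups overlapped for Col4a6. Col4a4 was at 937, 830, 874 and 876 CPM in the thin limb and at 830, 763, 868 and 723 CPM in connecting tubule and principal cells, so these neighbours in its order overlapped.

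Other collagens were unevenly spread over the segments. Col5a2, a chain of the type V fibrils that set fibre width, was at 222, 250, 82.4 and 118 CPM in the thick ascending limb and at 175, 173, 181 and 156 CPM in the distal convoluted tubule. Both BPTES libraries exceeded both DMSO libraries in the thick ascending limb, a class without a test of its own here, and the values overlapped in the distal convoluted tubule. Over the whole tubule 24.7% of all genes tested were higher under BPTES without overlap. The thick ascending limb joined the shallow cluster 20 and the deeper cluster 34, at 0.172 and 1.65 times the median UMIs per cell of the library. Col26a1 was at 173, 159, 112 and 158 CPM in connecting tubule and principal cells. Col18a1, whose C-terminal fragment is endostatin, was at 525, 519, 454 and 437 CPM in intercalated cells, and the transmembrane Col25a1 at 29.1, 25.2, 29.6 and 16.5 CPM.

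Fibroblasts were few and uneven in number. The BPTES libraries held 12 and 16 of them and the DMSO libraries 33 and 182. These were 0.161%, 0.241%, 0.459% and 2.53% of the cells named fibroblasts, endothelium or tubule. Unnamed clusters were left out of this base. The DMSO mean was 1.497% ± 1.47 (SD, n = 2) and the BPTES mean 0.201% ± 0.0565 (SD, n = 2), a ratio of 7.45. The exact two-sided permutation test over the libraries gave p = 0.3333, the smallest that 2 against 2 allows. Without DMSO 2 the ratio was 2.28. With both stromal clusters, the second then added to the base as well, it was 3.41. Since counts of this kind rest on what the digestion and the sort released, fewer fibroblasts in the tissue and fewer in the droplets cannot be told apart.

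Within fibroblasts no collagen passed the test between the groups. Col1a1 stood at 2283, 1383, 1926 and 2000 CPM and Col3a1 at 2367, 1734, 2481 and 2268 CPM. Col1a2 stood at 2577, 2119, 2546 and 2776 CPM. The 2 groups overlapped for all 3 genes, and BPTES 2, with 16 cells, was the lowest each time. The beaded-filament chains varied as widely, with Col6a1 at 512.5, 223, 453 and 312 CPM and Col6a3 at 412, 280, 383 and 332 CPM. Col5a1, the other main type V chain, was at 322.5, 184, 254 and 254 CPM, and its partner Col5a2 at 420, 323, 437 and 511 CPM. Col14a1, which decorates the surface of type I fibres, was at 1097, 649, 966 and 851 CPM, and Col15a1 at 1008, 668, 982 and 1265 CPM. Col12a1, also fibril-associated, was at 48.9, 101, 79.6 and 179 CPM.

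Of the 23 collagens tested in fibroblasts, 0 were called by edgeR at an adjusted p under 0.05, beside 0.0336% of all 8930 genes tested. DESeq2 also called 0 collagens, and 5 genes in all. An unadjusted p under 0.05 was reached by 4 collagens under DESeq2, beside 184 genes in all, and by 5 under edgeR, beside 515. One was Col4a5, higher by 1.19 ± 0.24 on the log2 scale (SE, edgeR adjusted p = 0.566) at 112, 107, 57.9 and 43.3 CPM. Another was Col18a1, at −0.65 and 412, 402, 549 and 747 CPM. The others were Col4a3 (0.54), Col8a2 (1.38) and Col23a1 (1.21), of which Col8a2 had 11 to 63 UMIs per library and Col23a1 10 to 61. BPTES and DMSO libraries did not overlap for 5 collagens that were higher and 4 that were lower, beside 17.8% and 19.1% of all genes. The median log2 fold change was −0.04 over the collagens and 0.00 over all genes. With both stromal clusters together, 0 of 31 collagens were called, beside 0.705% of all genes.

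Fibrillar collagen RNA was also counted outside the stroma, at levels that ordered the libraries by their stromal amount in tubule and leukocytes. Col1a1, Col1a2 and Col3a1 together gave 33.7, 25.8, 52.3 and 218 UMIs in the 2 stromal clusters per 1000000 UMIs of kept cells. In tubule the 3 genes summed to 0.546, 0.338, 1.07 and 3.94 CPM, from 74, 37, 134 and 509 UMIs. In leukocytes they summed to 0.955, 0.486, 1.70 and 5.06 CPM. BPTES 2 was lowest, then BPTES 1, DMSO 1 and DMSO 2, the same order as the stromal amount. By the number of fibroblasts (12, 16, 33 and 182) BPTES 1 was the lowest library, so there the order of the BPTES libraries was the opposite. In endothelium the values were 1.01, 0.533, 0.677 and 6.46 CPM, from 10, 3, 6 and 88 UMIs, and there DMSO 1 lay below BPTES 1.

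With DMSO 2 included, the ratio of the signal outside to the stromal amount varied less than the amount itself. In tubule the 3 genes stood at 1.62%, 1.31%, 2.05% and 1.81% of the stromal value. In leukocytes they stood at 2.83%, 1.89%, 3.25% and 2.33%, and in endothelium at 2.98%, 2.07%, 1.29% and 2.97%. Without DMSO 2 the stromal amount ran only from 25.8 to 52.3. The endothelial ratio, from 1.29% to 2.98%, then varied more than the amount in relative terms, and those in tubule and leukocytes less. For Col6a1, Col6a2 and Col6a3 together the ratio was 1.18%, 2.50%, 2.74% and 4.56% in tubule and 2.17%, 3.58%, 5.03% and 3.17% in leukocytes. DMSO 2 exceeded the median of the other 3 libraries 6.45-fold in stromal amount, 7.22-fold in tubule, 5.30-fold in leukocytes and 9.55-fold in endothelium. T cells held 0.841, 0.892, 1.21 and 6.40 CPM of the 3 genes. B cells held 1.78, 0, 0.907 and 2.86 CPM from 7, 0, 3 and 14 UMIs, so the groups overlapped there. Neutrophils held 0, 0.634, 4.02 and 8.92 CPM from 0, 2, 11 and 35 UMIs. DMSO 2 was the highest library in all 3 of these classes. Barcodes removed for a high mitochondrial share held 1.52, 0.710, 3.29 and 12.2 CPM.

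**Figure D2:**
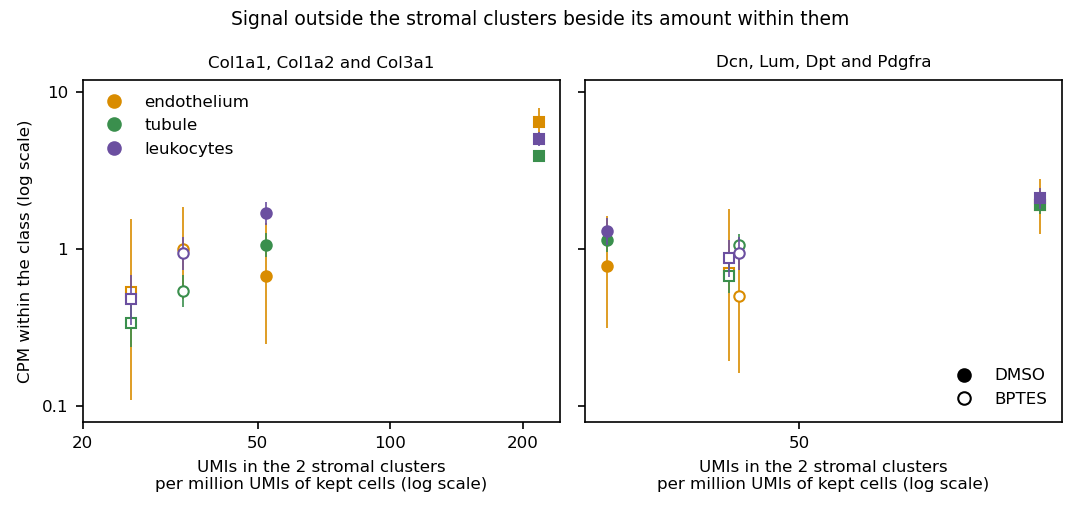
CPM of Col1a1, Col1a2 and Col3a1 (left) and of Dcn, Lum, Dpt and Pdgfra (right) within endothelium, tubule and leukocytes (y axis, log scale) against the UMIs of the same genes in the 2 stromal clusters per 1000000 UMIs of kept cells (x axis, log scale). Each point is 1 library (circle replicate 1, square replicate 2; filled DMSO, open BPTES) with an exact 95% Poisson interval; DMSO 2, at 218 on the x axis of the left panel, is the highest in all 3 classes.

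Non-collagen fibroblast genes were set beside them as ratios of the DMSO mean to the BPTES mean. For the 3 fibrillar collagens the ratio was 4.54 in stromal amount, 5.67 in tubule, 4.69 in leukocytes and 4.64 in endothelium. Without DMSO 2 it was 1.76 in stromal amount, 2.42 in tubule, 2.36 in leukocytes and 0.88 in endothelium, so the direction in endothelium rested on that library. The Col6a1, Col6a2 and Col6a3 sum had ratios of 3.46 in stromal amount, 8.13 in tubule, 4.50 in leukocytes and 5.18 in endothelium, the last from 0, 1, 1 and 11 UMIs. Without DMSO 2 these ratios were 1.68, 2.63, 3.03 and 1.27. The proteoglycan genes Dcn and Lum, the matrix gene Dpt and the receptor gene Pdgfra together had 1.36 in stromal amount, 1.75 in tubule, 1.87 in leukocytes and 2.22 in endothelium. Without DMSO 2 their ratios were 0.75, 1.31, 1.43 and 1.30. The stromal amount of these genes was 43.7, 42.8, 32.6 and 85.4 UMIs per 1000000 UMIs of kept cells. DMSO 1 was the lowest library by that amount, while in tubule, leukocytes and endothelium only DMSO 2 exceeded DMSO 1. For these genes the order outside thus did not follow the amount in the 2 stromal clusters. By their UMIs in fibroblasts alone (1116, 910, 3002 and 11112) the order was that of tubule and leukocytes. In endothelium BPTES 1 was the lowest.

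In the tests, tubule and leukocytes showed large fold changes of stromal collagens without a call. In tubule Col1a1 had a log2 fold change of −2.25, Col1a2 of −2.35 and Col3a1 of −2.52, with edgeR adjusted p of 0.258, 0.2775 and 0.263. Without DMSO 2 they were −1.12, −1.12 and −1.19. Fold changes in leukocytes were −2.15, −2.24 and −1.98, and without DMSO 2 they were −1.27, −1.14 and −0.94. How much of them is RNA carried over from stromal cells was not tested beyond the values above.

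The level of a collagen outside fibroblasts, as a percentage of its fibroblast level, differed widely between members. Col1a1, Col1a2, Col3a1, Col5a1, Col6a1, Col6a2 and Col6a3 served as a reference chosen after their values were seen. Over the 4 libraries summed they stood at 0.0195% to 0.0633% in tubule, 0.0281% to 0.0701% in leukocytes and 0.0119% to 0.458% in endothelium. Of the 17 other collagens with at least 100 fibroblast UMIs, 15 lay above the highest reference value in tubule, 16 in leukocytes and 16 in endothelium. The exceptions were Col15a1 and Col14a1 in tubule, Col5a2 in leukocytes and Col16a1 in endothelium. With a reference chosen after its values were seen, this count is a description. The non-collagen fibroblast genes Dcn (0.0795%) and Dpt (0.161%) also lay above it in tubule, and Lum (0.119%) and Dpt (0.121%) in leukocytes. Lum and Pdgfra in tubule, Dcn and Pdgfra in leukocytes and each of these genes in endothelium did not. Col4a3 and Col4a4 in leukocytes counted as above, though most of their UMIs lay in tubule. The sums over the 4 libraries are weighted to DMSO 2, which held 182 of the 243 fibroblasts. Within single libraries, 12 to 17 of the other collagens had at least 20 fibroblast UMIs there. All but 0 to 3 of these collagens lay above in tubule and all but 0 to 2 in leukocytes. In endothelium DMSO 1 had 5 exceptions (Col14a1, Col16a1, Col6a6, Col8a1 and Col8a2) below its highest reference value of 0.799%, and the other libraries had 0 to 2. Col8a1 in tubule stood at 12.1%, 12.1%, 4.15% and 4.93% per library. Col14a1 in leukocytes stood at 3.20%, 4.99%, 6.61% and 8.68%. Col4a1 in endothelium stood at 53.6%, 65.8%, 66.3% and 70.5%. Col4a3 and Col4a4 in tubule exceeded the fibroblast level in each library, at 151% to 236% and 143% to 188% of it. Col4a5 in tubule stood at 64.8%, 69.8%, 129% and 176% of it, below the fibroblast level in both BPTES libraries and above it in both DMSO libraries.

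**Figure D3:**
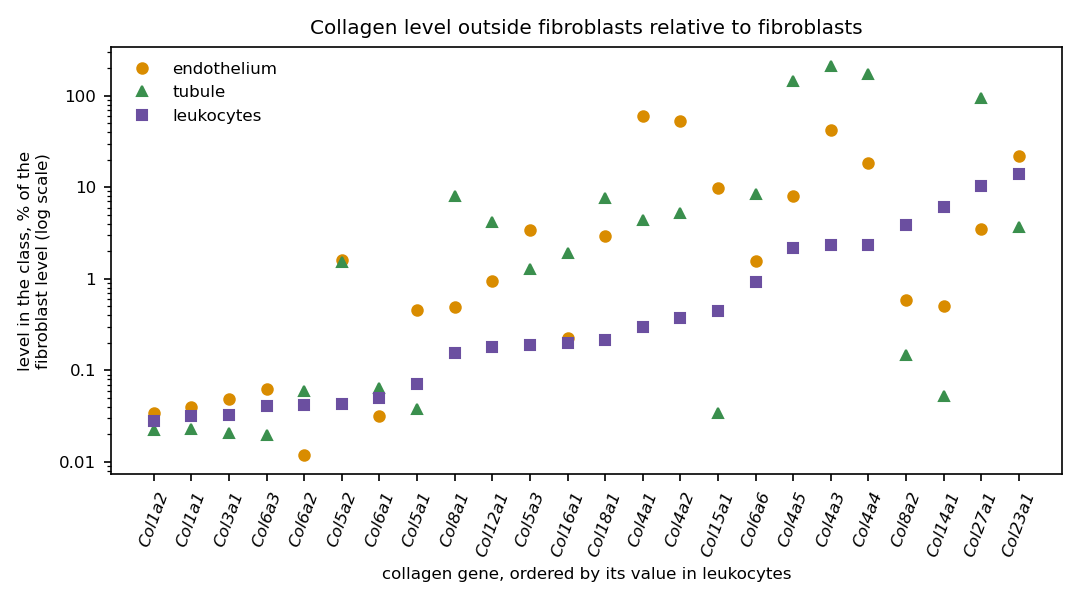
Level of each collagen with at least 100 fibroblast UMIs (x axis, ordered by the leukocyte value) in endothelium, tubule and leukocytes as a percentage of its level in fibroblasts (y axis, log scale; 4 libraries summed). The reference collagens gather at the low end on the left, and Col14a1 in leukocytes (6.06%), Col8a1 in tubule (8.08%) and Col4a1 in endothelium (59.3%) lie far above them.

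In endothelium 1 collagen of the basement membrane fell under BPTES, and 2 more had similar fold changes that missed the threshold. Col4a1 stood at 725, 809, 1079 and 1243 CPM. Both BPTES libraries lay below both DMSO libraries. The log2 fold change was −0.58 ± 0.10 (SE) with an edgeR adjusted p of 0.0381. It was the only call among the 22 collagens tested, lower in 2 of 2 libraries, and 0.519% of the 13100 genes tested were called, 0.244% as lower.

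Col4a2, the chain that joins 2 Col4a1 chains in 1 helix, stood at 427, 515, 682 and 713 CPM, also without overlap. Its log2 fold change was −0.55 ± 0.10 (SE), and the edgeR adjusted p of 0.0508 missed the threshold. Col15a1 behaved likewise at 100.1, 81.0, 127 and 136 CPM, with −0.52 ± 0.10 (SE) and an edgeR adjusted p of 0.0578. Col4a1 was not called without BPTES 1 (−0.49, edgeR adjusted p 0.123), without DMSO 2 (−0.47, 0.379) or with doublets kept (−0.55, 0.107).

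Col4a1 and Col4a2 lie head to head on chromosome 8 (GRCm38). The annotation (GENCODE vM21) places Col4a1 at chr8:11198423-11312826 on the minus strand and Col4a2 at chr8:11312805-11449287 on the plus strand. Their first bases overlap by 22 bases, chr8:11312805-11312826, shown on the plus strand because the 2 genes with the lowest edgeR adjusted p among endothelial collagens start within it. The sequence is RefSeq's (GRCm38.p6), and the capitals mark a GC box (GGGCGG).

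Col4a1 and Col4a2 shared start: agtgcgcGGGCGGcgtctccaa

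A GC box on either strand lies within the first 22 bases after the start in 4.09% of the 32851 promoter entries of the same table. Its presence here is a description. The other type IV genes are also paired head to head. Col4a3 and Col4a4 start 72 bases apart on chromosome 1, and Col4a5 and Col4a6 start 1309 bases apart on chromosome X.

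The lower Col4a1 and Col4a2 levels were also seen within endothelial clusters, which are parts of the same libraries and no further replicates. In the endothelial class as a whole 22% of all genes tested were lower without overlap. Of 6 clusters whose best list was endothelium and that held at least 20 cells in each library, the BPTES mean of Col4a1 was lower in 6, without overlap of the libraries in 4. For Col4a2 it was lower in 6, without overlap in 5, and for Col15a1 in 5, without overlap in 3. Of these clusters 23, 25 and 37 stayed unnamed, 2 for their low UMI counts and 1 for its leading genes, and were not part of the endothelium tested above. In the other 3, which were, the libraries did not overlap in 2 for Col4a1, 2 for Col4a2 and 1 for Col15a1. In the biggest, cluster 3, Col4a1 was at 753, 812, 1028 and 1365 CPM. In cluster 24, led by Sema3d, Plvap and Selp, it was at 657, 909, 867 and 998 CPM, which overlap.

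Marker lists named for other cells moved with the groups in the endothelium: 5 of the 23 lists were lower and 5 higher under BPTES without overlap. A list sum need not come from the cells it is named for. Pi16 of the fibroblast list, for example, is a leading gene of endothelial cluster 43. The mural list summed to 4.93 and 2.13 CPM in the BPTES libraries and 9.02 and 6.31 CPM in the DMSO libraries, with 5 to 10 of its 12 genes present and Rgs4 and Higd1b at 0 in all 4. The fibroblast list summed to 131 to 132 CPM under BPTES and 89.4 to 131 CPM under DMSO, 4 to 10 of 12 genes. The proximal tubule list summed to 185 to 248 CPM under BPTES and 147 to 158 CPM under DMSO. The injured proximal tubule list, 6 to 7 of 8 genes, summed to 143 to 160 CPM under BPTES and 271 to 347 CPM under DMSO. The monocyte list, 6 to 7 of 7 genes, summed to 193 to 225 CPM and 306 to 351 CPM. Their part in the Col4a1 difference was not tested.

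Not all endothelial collagens were lower. Col4a5 stood at 6.04, 6.75, 3.27 and 2.20 CPM from 60, 38, 29 and 30 UMIs, a log2 fold change of 1.26 ± 0.30 (SE, edgeR adjusted p = 0.0981). With the unnamed endothelial clusters added, an alternative chosen after seeing the data, this became 0.05. Col4a3, a tubular chain, was at 78.6, 75.9, 76.5 and 54.0 CPM. Col13a1 was at 34.7, 29.7, 38.0 and 41.5 CPM (log2 fold change −0.28, edgeR adjusted p = 0.359). After the TMM scaling that the test uses, libraries did not overlap for 5 collagens higher and 5 lower, beside 21.7% and 22% of all genes tested. Col4a3 was among the higher by that scaling, though its plain CPM above overlap. The median log2 fold change was 0.10 over the 22 collagens and 0.00 over all genes.

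**Figure D4:**
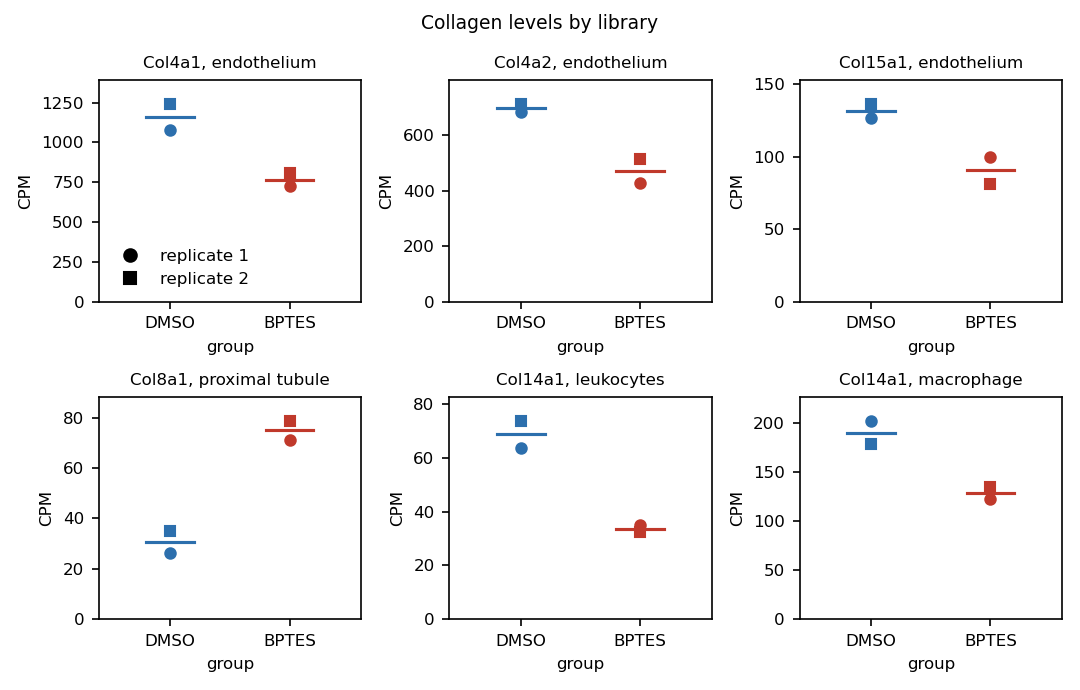
CPM (y axis, from 0) of 5 collagens by group, 1 point per library (circle replicate 1, square replicate 2) with a bar at the group mean. Col4a1, Col4a2 and Col15a1 in endothelium and Col14a1 in leukocytes and macrophages are lower in both BPTES libraries, and Col8a1 in proximal tubule (71.3 and 78.7 against 26.4 and 34.8) is higher in both.

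The proximal tubule had 1 collagen that rose. Col8a1 stood at 71.3, 78.7, 26.4 and 34.8 CPM there, with both BPTES libraries above both DMSO libraries. The log2 fold change was 1.38 ± 0.17 (SE, edgeR adjusted p = 0.0373), higher in 2 of 2 libraries. Of the 15977 genes tested in the class 0.526% were called, and 0.175% as higher. Of the 25 collagens tested 1 was called. It was not called without BPTES 2 (1.25, edgeR adjusted p 0.258) or with doublets kept (1.35, 0.0518).

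Over the tubule as a whole Col8a1 stood at 65.0, 72.5, 24.0 and 28.7 CPM, with a log2 fold change of 1.51 ± 0.13 (SE, edgeR adjusted p = 0.147). There edgeR called 0 of 31 collagens and 0% of the 17450 genes tested. At an unadjusted p under 0.05 it had 11 collagens and 2654 genes, and DESeq2 called 6 collagens and 678 genes.

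Col8a1 lies at chr16:57624258-57754737 on the minus strand (GRCm38, GENCODE vM21). The 250 bases before its start, chr16:57754738-57754987 (GRCm38.p6, RefSeq), are shown on the gene's strand because it is the collagen that rose in the proximal tubule. The capitals mark 4 GC boxes, GGGCGG read on the other strand as CCGCCC.

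Col8a1 promoter: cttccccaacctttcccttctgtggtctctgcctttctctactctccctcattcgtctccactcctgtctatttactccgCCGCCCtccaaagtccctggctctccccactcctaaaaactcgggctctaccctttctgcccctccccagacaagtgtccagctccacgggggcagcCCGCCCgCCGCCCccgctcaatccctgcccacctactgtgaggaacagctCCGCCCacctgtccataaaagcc

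A GC box on either strand occurs in 32.7% of the 32851 promoter entries over the same 250 bases before the start. The letters ATTGG and TATAAA, searched on both strands, are not in this window, and they occur in 33.8% and 12.4% of the entries.

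The Col8a1 level was concentrated in part of the proximal tubule. In cluster 2, led by Snhg11 and Magi2, it was at 216, 208, 84.3 and 117 CPM, and in cluster 9, led by Snhg11 and Gm26917, at 147, 172, 86.4 and 126 CPM. Both clusters were higher in both BPTES libraries. Cluster 0, led by Spp2 and Apob, held 15.5, 16.9, 12.1 and 16.0 CPM, which overlap. Of 8 proximal tubule clusters with at least 20 cells per library, all parts of the same libraries, 4 were higher without overlap and 1, cluster 17, lower. In the proximal tubule as a whole 28.1% of all genes tested were higher and 28.4% lower without overlap. Cluster 2 had 989, 832, 876 and 666 cells and cluster 9 had 420, 423, 275 and 221, so BPTES libraries also held more cells of cluster 9. Over the whole tubule 9 of the 23 marker lists were lower and 3 higher under BPTES without overlap. The proximal tubule list, all 11 genes present, summed to 12098 to 12208 CPM under BPTES and 10292 to 11523 CPM under DMSO. The plasmacytoid dendritic cell list, all 6 genes present, summed to 663 to 911 CPM and 377 to 526 CPM. It includes Klk1, a leading gene of distal convoluted tubule cluster 18, so its sum need not come from plasmacytoid dendritic cells. The injured proximal tubule list summed to 72.6 to 84.2 CPM under BPTES and 151 to 320 CPM under DMSO, all 8 genes present. Their part in the Col8a1 difference was not tested.

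Col27a1 was at 68.9, 71.3, 49.4 and 59.1 CPM in proximal tubule, without overlap, with a log2 fold change of 0.46 (edgeR adjusted p = 0.134). Col4a2 was at 60.3, 61.7, 49.5 and 50.5 CPM there, with 0.37 (edgeR adjusted p = 0.115). After TMM scaling, libraries did not overlap for 6 collagens higher and 10 lower, beside 28.1% and 28.4% of all genes. Over all tubule classes these counts were 7 and 14 of 31, beside 24.7% and 26.2%.

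The specialised type IV chains did not pass the test between the groups over the tubule. Col4a3 stood at 356, 319, 304 and 379 CPM, Col4a4 at 334, 310, 306 and 350 CPM and Col4a5 at 72.8, 74.7, 74.7 and 76.2 CPM. The groups overlapped for Col4a3 and Col4a4. For Col4a5 the direction turned with the scaling: after the TMM scaling that the test uses it was at 73.4, 80.6, 71.6 and 73.1 CPM, higher in both BPTES libraries. Col18a1 was at 42.6, 42.2, 48.0 and 73.3 CPM, with DMSO 2 the highest.

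Leukocytes had 1 collagen that fell. Col14a1 stood at 35.1, 32.4, 63.8 and 73.8 CPM, with both BPTES libraries below both DMSO libraries. The log2 fold change was −0.93 ± 0.09 (SE, edgeR adjusted p = 0.0273), lower in 2 of 2 libraries. Of the 17245 genes tested 5.96% were called, and 3.28% as lower. The 1 lower call among 29 collagens is close to the share called as lower. The call was lost without BPTES 1 (−0.95, edgeR adjusted p 0.130) and without BPTES 2 (−0.90, 0.198). Col14a1 lies at chr15:55307750-55520803 on the plus strand (GRCm38, GENCODE vM21).

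Most of this signal came from macrophages, which held 73.7%, 83.4%, 75.1% and 70.0% of the leukocyte Col14a1 UMIs. Within macrophages Col14a1 was at 122, 135, 202 and 178 CPM, again without overlap. Monocytes held 17.6, 10.3, 29.8 and 41.0 CPM and dendritic cells 14.9, 17.2, 22.4 and 32.4 CPM, in the same direction. T cells were at 0.1, 0.5, 1.1 and 1.3 CPM. In leukocytes summed, 31.9% of all genes tested were lower without overlap. Of 10 leukocyte classes with at least 20 cells per library, all parts of the same libraries, 9 had a lower BPTES mean and 5 of them did not overlap. The exception was the innate lymphoid cells, with 0 UMIs in all 4 libraries. Among the macrophage clusters, cluster 41, led by Aif1, C1qb and Pf4, went the other way, at 213, 190, 53.3 and 83.5 CPM from 11, 9, 5 and 15 UMIs, higher in both BPTES libraries.

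The makeup of the leukocytes differed beside this result. Macrophages were 23.0%, 21.7%, 24.3% and 27.6% of leukocytes. The 8 macrophage markers, all present, summed to 3223 to 3682 CPM in leukocytes under BPTES and 5764 to 7158 CPM under DMSO. The 6 plasma cell markers summed to 5787.5 to 8826 CPM under BPTES and 563 to 1114 CPM under DMSO, from a plasma cell cluster of 224, 173, 27 and 26 cells. With plasma cells left out Col14a1 had −0.84 (edgeR adjusted p = 0.0324). In all, 9 of the 23 lists were lower and 7 higher without overlap. The fibroblast list, 12 of 12 genes present, summed to 16.4 to 16.7 CPM under BPTES and 20.3 to 21.0 CPM under DMSO. The difference was also seen within macrophages, and the part of these markers in it was not tested.

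Col27a1 went the other way in leukocytes, at 7.22, 7.81, 5.89 and 4.72 CPM (log2 fold change 0.60, edgeR adjusted p = 0.0715), and in macrophages it was at 17.3, 20.9, 12.2 and 6.39 CPM. The groups did not overlap in either. Col18a1 had a log2 fold change of −0.89 in leukocytes (edgeR adjusted p = 0.079). Libraries did not overlap for 7 collagens higher and 9 lower, beside 29% and 31.9% of all genes tested.

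**Figure D5:**
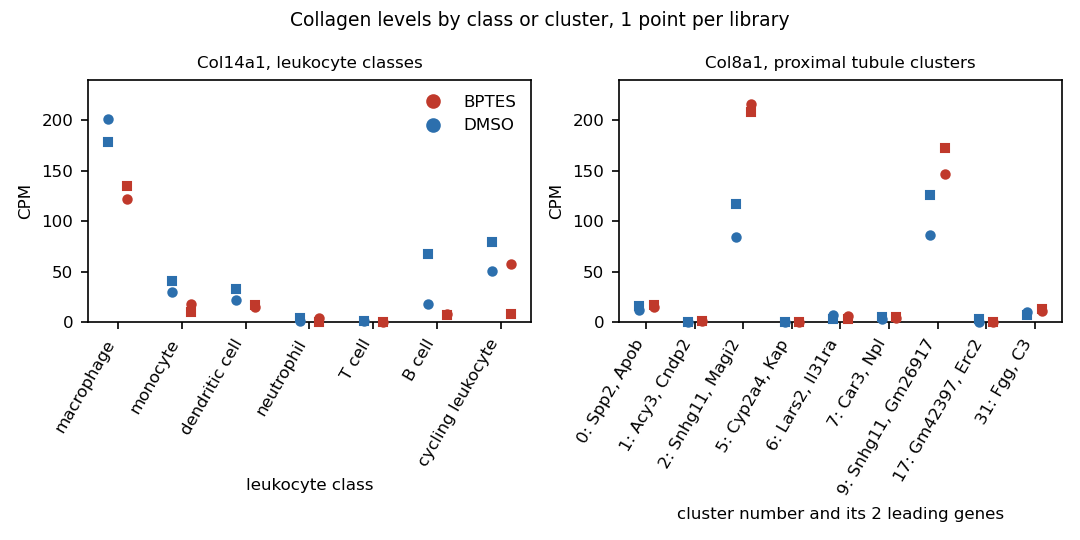
CPM (y axis, from 0) of Col14a1 in leukocyte classes (left) and of Col8a1 in proximal tubule clusters (right, cluster number and leading genes), 1 point per library (circle replicate 1, square replicate 2). Col14a1 is highest in macrophages and lower there in both BPTES libraries, and Col8a1 is high in clusters 2 and 9 only.

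Whether the BPTES effect differed between tubule and endothelium was tested in 1 fit with the library as a block. Of 34 collagens tested 2 were called, beside 0.645% of 17992 genes. The log2 fold change of Col4a2 was −0.55 in endothelium and 0.23 in tubule, and the difference in that fit was 0.82 ± 0.12 (SE, edgeR adjusted p = 0.00512). The log2 fold change of Col4a5 was 1.26 in endothelium and 0.09 in tubule, and the difference was −1.17 ± 0.25 (SE, edgeR adjusted p = 0.0445). Endothelial Col4a5 rested on 60, 38, 29 and 30 UMIs, while tubule held 95.2% of the Col4a5 UMIs of kept cells. How much of the endothelial count was carried over from tubule was not tested. Neither difference was called without BPTES 1 (0.81 and −1.12) or without BPTES 2 (0.84 and −1.19), and that of Col4a5 was not called without DMSO 2 (−0.86). With the unnamed endothelial clusters added, an alternative chosen after seeing the data, the endothelial fold change of Col4a5 was 0.05, and the difference was not refitted with them. For Col4a1 the difference was 0.59 (edgeR adjusted p = 0.354), which became a call without DMSO 2 (0.69, edgeR adjusted p = 0.046). Between fibroblasts and endothelium edgeR called 0 of 33 collagens and 0.00725% of 13787 genes. At an unadjusted p under 0.05 it had 2 collagens and 682 genes in all.

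A list of 82 genes that make, process, cross-link, bind or degrade collagen, or lie beside it in the matrix, was read in the same fits. In endothelium 63 were tested and 1 rose, Lama3 (a laminin chain), by 0.50 on the log2 scale, beside 0.519% of all genes called. In proximal tubule 64 were tested and 1 rose, P3h2, a prolyl 3-hydroxylase that modifies type IV collagen, by 0.90 ± 0.13 (SE, edgeR adjusted p = 0.041), beside 0.526%. Of the 64 in fibroblasts and the 74 in the whole tubule, 0 passed the test.

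Leukocytes had 72 tested, of which 3 rose and 4 fell. Those higher were Timp3, an inhibitor of metalloproteinases, by 0.37, the collagen-binding integrin Itga1 by 0.37 and the fibronectin gene Fn1 by 0.77. Those lower were Timp1, at −2.88, the collagenase Mmp14, at −1.28, the collagen galactosyltransferase Colgalt1, at −0.54, and Timp2, at −0.41. Inhibitors of metalloproteinases stood on both sides, and 7 of 72 compares with 5.96% of all genes. Macrophage and plasma cell markers in leukocytes differed between the groups, as given above, and their part in these changes was not tested.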

How the data were processed

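The authors deposited 1 matrix of raw UMI counts per library, and per the submitters' processing notes it was made with Cell Ranger 8.0.1 on mm10; whether intronic reads were counted is not given in the sources used here. Barcodes had at least 500 UMIs, 300 genes and at most 50% mitochondrial counts. Doublets (3867) were removed by Scrublet score at 0.4% per 1000 cells, since its own threshold marked only 700. Cells were clustered without collagen genes (scanpy 1.11.5, leidenalg 0.10.2, resolution 1) and named from 23 marker lists; 6 of 51 clusters, 4067 cells (8.70%), stayed unnamed. Raw counts were summed per library and class and tested with edgeR 4.0.16 (TMM scaling, filterByExpr, quasi-likelihood, Benjamini-Hochberg over all genes, threshold 0.05). CPM in the text are plain UMIs per 1000000 UMIs of the class. The counts of tested collagens whose libraries did not overlap use TMM-scaled CPM instead.

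The members and lists were chosen with earlier results of these data known. Collagens named were those past the threshold, the 5 with most UMIs in each class and a set list; genes of the pathway list were named where called. The same-group libraries differed beyond sampling noise (chi-square per degree of freedom 3.56 to 98.0), but nothing says they came from separate animals, so p-values may measure technical spread. Intervals cover counting error only. Alternatives were DESeq2 1.42.0, RLE scaling, no filter on low counts, a replicate block, each library left out, 25% mitochondrial limit, doublets kept, resolution 2, collagens in the clustering, and 2 choices of cells made after seeing the data. Where a group had 1 library left, it was assumed to vary like the other group. All 44 genes matched GENCODE vM21 and 35 had a RefSeq promoter entry; proteins were not used here.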

Additional observations from a re-analysis of the deposited data

Results flagged for a closer look

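The BPTES effect on 2 basement membrane chains differed between tubule and endothelium in a test of the difference itself, in 1 edgeR fit with the library as a block. For Col4a2 the log2 fold change was higher in tubule by 0.82 (edgeR adjusted p = 0.00512). For Col4a5 it was lower in tubule by a difference of −1.17 (edgeR adjusted p = 0.0445). The Col4a5 call was lost without BPTES 1 (−1.12, edgeR adjusted p 0.312), without BPTES 2 (−1.19, edgeR adjusted p 0.331) and without DMSO 2 (−0.86, edgeR adjusted p 0.45). Its endothelial log2 fold change of 1.26 was 0.05 with the unnamed endothelial clusters added, an alternative chosen after seeing the data, and the difference was not refitted with them. The Col4a2 call was lost without BPTES 1 (0.81, edgeR adjusted p 0.302) and without BPTES 2 (0.84, edgeR adjusted p 0.409), with little change of its size.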

How the results depend on the processing

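Of 342 alternative fold changes over 27 pairs of collagen and class, 296 kept direction and side of the threshold, 34 gained a call, 8 lost one and 4 changed sign. Those 4 were uncalled: Col1a2 in fibroblasts at a 25% mitochondrial limit (0.028), Col1a1 in fibroblasts without BPTES 2 (0.25; range over left-out libraries −0.49 to 0.25), Col3a1 in fibroblasts without BPTES 2 (0.032; −0.44 to 0.032) and Col4a3 in tubule without DMSO 1 (−0.045; −0.045 to 0.27). The causes were not tested. Only pairs called in the main fit could lose a call. Col4a1 in endothelium lost it in 3 of 13 alternatives, Col8a1 in proximal tubule in 2 of 12 and Col14a1 in leukocytes in 3 of 13.

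The number of collagens called depended on the setting, as did the number of all genes called, given in brackets. Under DESeq2 it was 3 in endothelium (120), 6 in tubule (678), 6 in proximal tubule (758) and 4 in leukocytes (2412). Without a filter on low counts it was 2 in fibroblasts (78), 4 in endothelium (664), 1 in tubule (44) and 11 in proximal tubule (1861). At a 25% mitochondrial limit it was 1 in fibroblasts (174), 3 in endothelium (81) and 1 in tubule (3), and with doublets kept 0 in endothelium (30) and 0 in proximal tubule (32). At that limit and at resolution 2 no second stromal cluster stood apart from the fibroblasts. Their mean share was then 3.08% and 2.50% under DMSO and 0.803% and 0.732% under BPTES. The fibroblast class thus held a different set of cells in these 2 alternatives. In endothelium RLE scaling gave 2 (75), collagens in the clustering 3 (98), and the unnamed endothelial clusters, added after seeing the data, 2 (88). Leaving out 1 library gave 0 to 1 in fibroblasts (19 to 44), 0 to 2 in endothelium (6 to 146), 0 to 14 in tubule (2 to 2593; 14 and 2593 without DMSO 1, 6 and 980 without DMSO 2), 0 to 8 in proximal tubule (7 to 1241) and 0 to 3 in leukocytes (7 to 823). The difference tests gave 0 to 2 for fibroblasts against endothelium (20 to 76) and 0 to 5 for tubule against endothelium (7 to 747).

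Replicate numbers in the labels are only numbers: deviations of same-numbered libraries correlated from −0.0125 in fibroblasts to 0.289 in proximal tubule. With the replicate block 2 collagens were called in endothelium (108 genes in all), 7 in proximal tubule (2114) and 0 in leukocytes (160), where Col14a1 had −0.93 with an edgeR adjusted p of 0.0556.

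The fibroblast ratio of DMSO to BPTES ran from 2.28 to 12.6 over the left-out libraries. The Col1a1, Col1a2 and Col3a1 ratio ran from 0.88 to 8.39 in endothelium, 2.42 to 8.92 in tubule and 2.36 to 7.02 in leukocytes. The 28 BPTES fibroblasts limit what the fibroblast test can detect.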

Other observations

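Some collagens stood out in single clusters that no test here treated alone. Cluster 25, led by Aqp1, Cldn5 and Sox17, had endothelium as its best list but stayed unnamed and outside the endothelial class. It held Col18a1 at 224, 290, 432 and 261 CPM (BPTES 1, BPTES 2, DMSO 1 and DMSO 2) and Col12a1 at 238 CPM over the 4 libraries. The clusters that follow belong to the classes tested. Cluster 43, led by Plat, Ehd3 and Pi16, held Col18a1 at 162, 227, 202 and 180 CPM. Cluster 24, led by Sema3d, Plvap and Selp, held the transmembrane Col13a1 at 78.5, 54.6, 67.1 and 61.4 CPM, above the endothelial class as a whole in every library. Cluster 50, 15 cells led by the lymphatic genes Ccl21a and Mmrn1, held the transmembrane Col23a1 at 345 CPM over the 4 libraries.

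In injured proximal tubule, Col18a1 was at 349, 272, 237 and 312 CPM and Col4a1 at 208, 441, 261 and 373 CPM, with overlap of the groups for both. Intercalated cells held the fibrillar Col24a1 at 9.5, 26.5, 27.9 and 36.0 CPM.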
